A study of Mus musculus with 2 samples.

Results

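The enzymes of glycolysis, the pentose phosphate pathway and the first steps of pyruvate use were followed as a group of 32 genes, chosen by symbol from a list of these enzymes. All 32 were among the 14774 genes with read counts. The labels call the sequenced mouse cells regulatory T cells (Tregs), purified from C57BL/6 spleens as CD4+CD25+ cells and then co-cultured for 5 days with SVEC4-10, an SV40-transformed mouse endothelial cell line. In one culture the SVEC4-10 cells had been given control oligo, and in the other they had been given siRNA against Capns1, the gene of the small regulatory subunit of the calpain proteases. There was 1 library for each condition, called the control library and the knockdown library below, so differences cannot be set against a spread between cultures and p-values are left out.

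Glycolysis splits glucose into pyruvate in the cytosol and yields ATP and NADH. Pyruvate is then either reduced to lactate or carried into mitochondria and oxidized. The oxidative branch of the pentose phosphate pathway makes NADPH and its non-oxidative branch interconverts sugar phosphates and makes ribose for nucleotides. Activated effector T cells are known for high glycolysis, whereas Tregs are known to lean more on mitochondrial oxidation.

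The deposited totals were 48100576 reads in the control and 47300284 reads in the knockdown library. Levels are given as CPM (reads per 1000000 reads of a library size scaled by TMM, the trimmed mean of M-values), and the fold is the CPM of the knockdown over that of the control library. Each fold is followed by its exact 95% interval for the ratio of reads, which covers counting error only and compares these 2 libraries, not the conditions. It takes each read as an independent molecule, and since PCR copies are not, it may be too narrow. All 7 Treg marker genes of a fixed list were measured, but at a summed level of only 52.1 CPM in the control library and 48.5 CPM in the knockdown library. Foxp3, the transcription factor that defines Tregs, stood at 5.22 and 4.73 CPM, against summed levels of 2723 and 2423 CPM for 8 B cell markers. Transcripts of other cell types were thus more abundant than the Treg markers, and fewer cells of a type and less RNA per cell cannot be told apart. Capns1 itself stood at 243 and 236 CPM, a fold of 0.969 (0.944 to 0.994). The siRNA was given to the endothelial cells, and 5 of 13 endothelial markers were listed, at summed levels of 115 and 112 CPM. How much of the Capns1 reads came from them was not tested.

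Most of the enzyme genes were slightly higher in the knockdown library. Together they took 0.698% of all listed reads in the control library (exact binomial 95% interval 0.6958% to 0.7005%) and 0.744% in the knockdown library (0.742% to 0.747%). Of the 32 genes, 25 had a fold over 1 and 7 a fold under 1, and the median log2 fold was 0.09, beside 0.00 over all genes. None was past 2-fold in either direction, where 0.00677% of all genes were past 2-fold higher and 0.135% past 2-fold lower. At 1.2-fold with an interval off 1, the only gene higher was Ldhb, beside 4.65% of all genes, and none was lower, beside 6.74%. For 21 genes the interval was wholly above 1, beside 24.2% of all genes, and for 3 genes, Pfkfb3, Pdk1 and Pfkp, wholly below it, beside 22.7%. These shares over all genes are not matched for depth, and intervals narrow as reads rise. Among genes with at least 10000 control reads, as 9 of the 32 had, 43.2% lay above 1 and 38.8% below. The folds were small: 23 of the 32 genes lay within 1.1-fold of equality, against 59.8% of all genes of any depth.

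**Figure D1:**
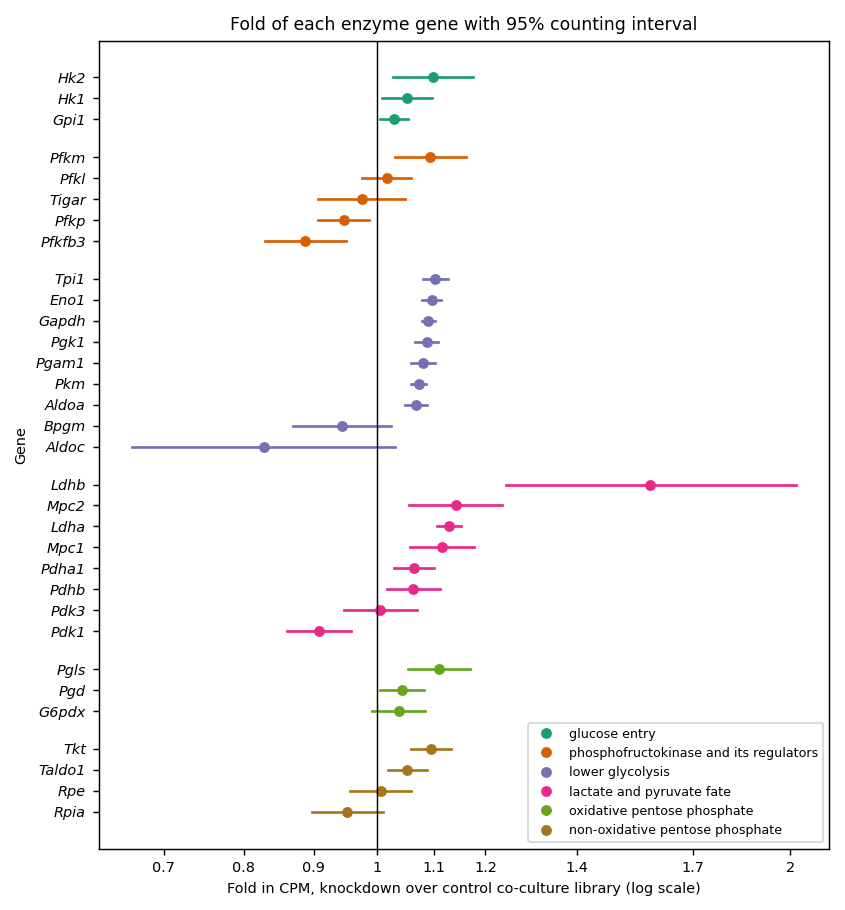
Fold in CPM of each enzyme gene, knockdown over control library, on a log scale, with bars for the exact 95% counting interval and colours for the role of the enzyme. Ldhb lies farthest to the right at 1.58, Aldoc farthest to the left at 0.827, and 7 of the 9 genes of lower glycolysis cluster between 1.07 and 1.10.

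Transcript length went with the folds. Spearman's rho of log2 fold with length was -0.33 over the 13381 genes whose length is known and -0.58 over the 32 enzyme genes, both as descriptions across genes of the same 2 libraries. The median transcript length was 2219 bases for the enzymes and 3097 over all genes. The median log2 fold of genes of like length, a running median over 500 genes, was 0.05 at the enzymes' lengths. With that trend removed, the enzymes' median log2 fold was 0.03, 22 genes lay above the running median and 10 below, and 13 genes had intervals above 1 and 5, namely Pfkp, Pfkfb3, Bpgm, Pdk1 and Rpia, below. The part that length has in each fold was not tested.

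**Figure D2:**
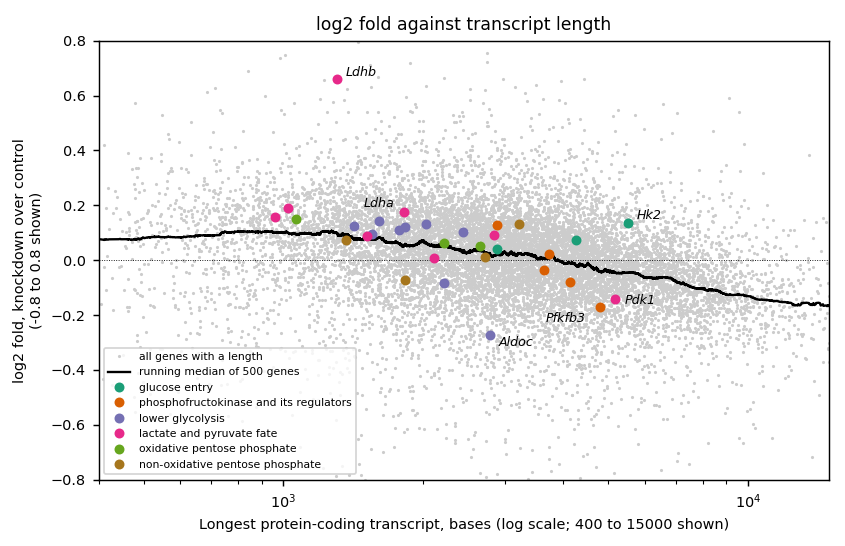
log2 fold of each gene (vertical axis) against the length of its longest protein-coding transcript in bases (horizontal axis, log scale), with all genes in grey, the running median of 500 genes as a line and the enzyme genes coloured by role. The line falls from short to long transcripts, and among the enzymes Ldhb, Aldoc and Hk2 lie far from it.

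The 3 genes of glucose entry had intervals above 1, while Hk3, a relative of the hexokinases among them, was lower. Hk1, the hexokinase found in most tissues, had 4443 control reads and 4563 knockdown reads, a fold of 1.05 (1.01 to 1.10). Hk2, the hexokinase that growth signals and low oxygen are known to induce, had 1684 and 1806 reads, a fold of 1.10 (1.03 to 1.18). Hk2 has the longest transcript of the 32 genes, 5513 bases, and genes of like length had a median log2 fold of -0.05. Gpi1, the isomerase that converts glucose phosphate to fructose phosphate, had 14871 and 14942 reads, a fold of 1.03 (1.01 to 1.05). Under total counts the fold of Gpi1 was 1.02 (0.9986 to 1.05), and with the length trend removed it was also 1.02 (0.993 to 1.04). Of the reads of Hk1 and Hk2, Hk2 took 27.5% (26.4% to 28.6%) in the control and 28.4% (27.3% to 29.5%) in the knockdown library, an odds ratio of 1.04 (0.965 to 1.13). Hk3, a further hexokinase outside the 32 genes, had 1527 and 1269 reads, a fold of 0.852 (0.790 to 0.918). With Hk3 counted in, a choice made after its values were seen, the hexokinase reads shifted. Hk3 took 19.95% (19.1% to 20.9%) and 16.6% (15.8% to 17.5%) of them, an odds ratio of 0.799 (0.736 to 0.869). The odds ratios of Hk1 and Hk2 were then 1.07 (1.005 to 1.14) and 1.10 (1.02 to 1.18).

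The phosphofructokinase step, the main control point of glycolysis, was mixed. Its 5 genes summed to 301 CPM in the control library and 297 CPM in the knockdown library, a fold of 0.986 (0.963 to 1.01), and 1 interval lay above 1, 2 below and 2 included it. Pfkm, the muscle-type subunit, had 2166 and 2313 reads, a fold of 1.09 (1.03 to 1.16). Pfkp, the platelet-type subunit, went the other way with 4345 and 4012 reads, a fold of 0.946 (0.906 to 0.988). Pfkl, the liver-type subunit, had 4512 and 4478 reads, a fold of 1.02 (0.976 to 1.06).

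The share of each subunit among phosphofructokinase reads does not depend on how the libraries are scaled. Pfkm took 19.6% (18.9% to 20.4%) in the control and 21.4% (20.6% to 22.2%) in the knockdown library, an odds ratio of 1.11 (1.04 to 1.19). Pfkp took 39.4% (38.5% to 40.3%) and 37.1% (36.2% to 38.1%), an odds ratio of 0.908 (0.859 to 0.959). Their transcripts differ in length, 2879 bases for Pfkm and 4145 for Pfkp. The exons of Pfkm overlap those of Senp1 and the exons of Pfkp those of Pitrm1, both on the other strand and both listed, at folds of 1.003 (0.958 to 1.05) and 0.998 (0.959 to 1.04).

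The genes that set the sugar phosphate activating phosphofructokinase were divided. Pfkfb3, which makes this activator, had 1858 and 1609 reads (38.8 and 34.4 CPM), which is a fold of 0.887 (0.830 to 0.949). It was the lowest of the 32 genes whose interval excluded 1. Tigar, a p53-induced phosphatase that removes the activator, had 1528 and 1454 reads, a fold of 0.975 (0.907 to 1.05). The odds ratio of Tigar to Pfkfb3 reads, knockdown over control, was 1.10 (0.995 to 1.21), an interval that includes 1. Outside the 32 genes, 3 relatives of Pfkfb3 were measured, and Pfkfb1 stood at 1.65 (1.31 to 2.09), Pfkfb2 at 0.989 (0.918 to 1.07) and Pfkfb4 at 0.904 (0.824 to 0.991), Pfkfb2 and Pfkfb4 being named after their values were seen.

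Lower glycolysis held most of the reads and its abundant genes were higher together. Its 9 genes took 68.7% of the enzymes' control reads and 69.3% of their knockdown reads, and summed to 4774 and 5176 CPM, a fold of 1.08 (1.08 to 1.09). The intervals of 7 lay above 1 and those of 2, Bpgm and Aldoc, included 1. Gapdh, the dehydrogenase that yields NADH, was the most abundant enzyme gene at 71675 control and 76291 knockdown reads, a fold of 1.09 (1.08 to 1.10).

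Next came Pkm, pyruvate kinase, with 48012 and 50280 reads, a fold of 1.07 (1.06 to 1.09), and Eno1, enolase, with 29818 and 31915 reads, a fold of 1.10 (1.08 to 1.11). Aldoa, the aldolase that cleaves the hexose, had 22119 and 23045 reads, a fold of 1.07 (1.05 to 1.09). These values place the steps on either side of Gapdh within a few percent of its own fold. Pgk1, phosphoglycerate kinase, had 20007 and 21230 reads, a fold of 1.09 (1.07 to 1.11), and Pgam1, phosphoglycerate mutase, 18884 and 19910 reads, a fold of 1.08 (1.06 to 1.10). Tpi1, triosephosphate isomerase, had 16803 and 18092 reads, a fold of 1.10 (1.08 to 1.13).

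The folds of these 7 genes stood close to each other. With the length trend removed they were smaller, from 1.01 (0.995 to 1.03) for Aldoa to 1.05 (1.04 to 1.06) for Pkm, with Gapdh at 1.03 (1.02 to 1.04). The ratio of Gapdh to Pgk1 reads was 3.58 in the control and 3.59 in the knockdown library, a ratio of ratios of 1.003 (0.981 to 1.03). That of Tpi1 to Aldoa was 0.760 and 0.785, a ratio of ratios of 1.03 (1.01 to 1.06). Such pairs, 10 in all, were chosen after the values were seen. All 9 enzyme genes with at least 10000 control reads had intervals above 1, beside 43.2% above and 38.8% below among all 858 genes of that depth. Under total counts and under upper-quartile scaling 8 of these 9 had intervals above 1, without Gpi1, and with the length trend removed 7 had, without Gpi1 and Aldoa. At such depth even a gap of a few percent exceeds counting error, and how far replicate cultures would differ is unknown here.

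The scarcer genes of this segment did not follow. Bpgm, which makes the bisphosphoglycerate that loosens oxygen from haemoglobin and is abundant in red cells, had 1217 and 1121 reads, a fold of 0.944 (0.870 to 1.02). Aldoc, the brain-type aldolase, had 187 and 151 reads, the lowest fold of the 32 genes at 0.827, with an interval of 0.663 to 1.03 that includes 1. Aldoc took 0.838% (0.723% to 0.967%) of the control library's aldolase reads and 0.651% (0.552% to 0.763%) of those of the knockdown library, an odds ratio of 0.775 (0.621 to 0.966). The 5 measured of 7 erythroid markers were also lower, with summed levels of 2580 and 2321 CPM and all 5 intervals below 1. Their part in the value of Bpgm was not tested.

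Per kilobase of transcript the enzyme genes spanned nearly 3 orders of magnitude. Gapdh stood at 1054 CPM per kb in the control and 1149 in the knockdown library, and Pkm at 412 and 442. The other 5 abundant genes of lower glycolysis lay between 218 and 307 CPM per kb in the control, with Ldha, at 207, just beneath them. Hk1, Pfkl, Pfkm and Pfkp lay between 15.7 and 25.2 CPM per kb in the control library. Hk2, at 6.38 and 7.01 CPM per kb, and Pfkfb3, at 8.08 and 7.17, lay lower. The lowest levels were those of Ldhb, at 1.82 and 2.89 CPM per kb, and Aldoc, at 1.40 and 1.16.

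**Figure D3:**
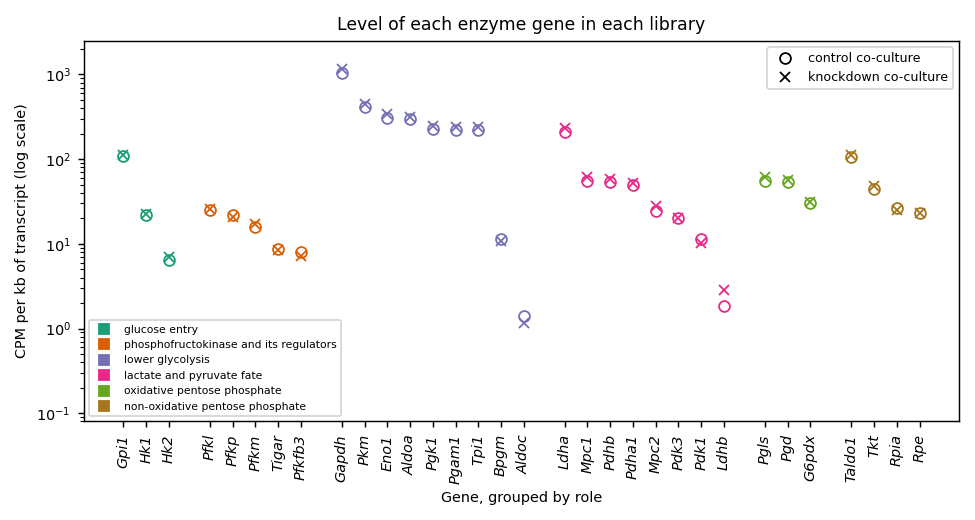
Level of each enzyme gene in CPM per kb of its longest protein-coding transcript (log scale), with open circles for the control and crosses for the knockdown library, grouped and coloured by role. Gapdh is highest, at 1054 and 1149, Aldoc and Ldhb are lowest, and the widest gap between circle and cross is at Ldhb.

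At the lactate step the largest fold belonged to the scarcest gene. Ldha, the lactate dehydrogenase subunit that favours making lactate, had 17962 control and 19786 knockdown reads, or 375 and 423 CPM, a fold of 1.13 (1.11 to 1.15). Among the 9 enzyme genes with at least 10000 control reads its fold was the highest. Ldhb (NCBI Gene 16832), the heart-type subunit that favours turning lactate back to pyruvate, had 114 and 176 reads (2.38 and 3.76 CPM), which is a fold of 1.58 (1.24 to 2.02). With the length trend removed its fold was 1.48 (1.16 to 1.89).

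Low counts spread widely, which bears on Ldhb. The SD of the log2 fold was 0.31 over the 2043 genes with 100 to 200 control reads, against 0.20 over all genes. Of these genes 1.37% were at least 1.5-fold higher with an interval above 1, and 5.53% at least 1.5-fold lower with an interval below 1. The table lists no gene under 100 control reads, so genes with fewer reads there are not among these. Ldhb took 0.631% (0.520% to 0.757%) of the control library's reads of Ldha and Ldhb and 0.882% (0.757% to 1.02%) of those of the knockdown library, an odds ratio of 1.40 (1.10 to 1.79). Of the reads of Ldha and Ldhb, 99.4% and 99.1% were those of Ldha, and with Ldhd, the lactate dehydrogenase for the D form, counted in, 98.4% in both libraries.

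The 4 enzyme genes of pyruvate entry and oxidation, Mpc1, Mpc2, Pdha1 and Pdhb, were higher by 6% to 14%, and the kinases that block oxidation, Pdk1 and Pdk3, were not. With the length trend removed only Pdha1 of these 4 kept an interval above 1, at 1.05 (1.02 to 1.09), while Mpc1 stood at 1.04 (0.987 to 1.10), Mpc2 at 1.07 (0.986 to 1.15) and Pdhb at 1.01 (0.963 to 1.05). Mpc1 and Mpc2 encode the mitochondrial pyruvate carrier, a pair of subunits that work together. Mpc1 had 2567 and 2796 reads, a fold of 1.12 (1.06 to 1.18), and Mpc2 had 1210 and 1348 reads, a fold of 1.14 (1.06 to 1.24). Mpc2 took 32.0% (30.5% to 33.6%) and 32.5% (31.1% to 34.0%) of the carrier's reads, an odds ratio of 1.02 (0.930 to 1.13).

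Pdha1 and Pdhb encode the subunits of the decarboxylase of pyruvate dehydrogenase. Pdha1 had 6795 and 7059 reads, a fold of 1.06 (1.03 to 1.10), and Pdhb had 3936 and 4085 reads, a fold of 1.06 (1.02 to 1.11). Pdha1 took 63.3% of the reads of the pair in both libraries, an odds ratio of 1.001 (0.947 to 1.06). Of the other subunits of the complex, which are not among the 32 genes, Dlat stood at 1.04 (0.9995 to 1.09), Dld at 1.07 (1.03 to 1.11) and Pdhx at 1.19 (1.11 to 1.28), all 3 named after their values were seen.

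Pdk1, a kinase that switches pyruvate dehydrogenase off and is a known target of the hypoxia-inducible factor HIF-1, had 2834 and 2510 reads (59.2 and 53.7 CPM), which is a fold of 0.908 (0.860 to 0.958). Pdk3, a kinase of the same family, had 2061 and 2024 reads, a fold of 1.01 (0.946 to 1.07). Pdk1 took 57.9% (56.5% to 59.3%) and 55.4% (53.9% to 56.8%) of the reads of both, an odds ratio of 0.902 (0.831 to 0.979). Pdk1 has a long transcript, 5185 bases, at which the median log2 fold of genes of like length was -0.05, and its own log2 fold was -0.14. The transcript of Pdk3 is shorter, 2115 bases, where that median was 0.05. With the length trend removed the folds were 0.937 (0.887 to 0.989) for Pdk1 and 0.971 (0.913 to 1.03) for Pdk3. These intervals overlap, and the shares of reads carry no such correction. Set against Ldha, another known target of HIF-1, the reads moved apart: the ratio of Ldha to Pdk1 reads was 6.34 in the control and 7.88 in the knockdown library, a ratio of ratios of 1.24 (1.17 to 1.32). With the length trend removed the fold of Ldha was 1.09 (1.07 to 1.11), and the ratio of reads carries no such correction.

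**Figure D4:**
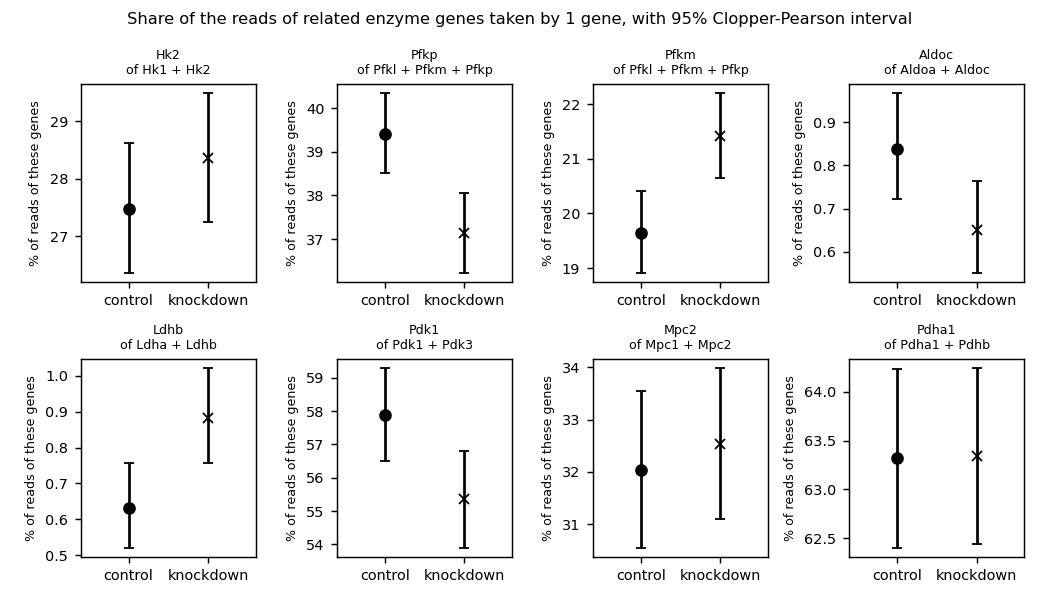
Share of the reads of related genes among the 32, named above each panel, taken by 1 of them in the control and in the knockdown library, in percent, with bars for the exact 95% Clopper-Pearson interval. Each panel has its own vertical axis, which does not start at 0. The share of Ldhb went from 0.631% to 0.882% and that of Pdk1 from 57.9% to 55.4%, while that of Pdha1 stayed at 63.3%. Shares are not corrected for transcript length.

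Ldha, Pgk1, Pfkfb3 and Pdk1 are all known HIF-1 targets, with Ldha and Pgk1 higher and Pfkfb3 and Pdk1 lower. They are a chosen subset, so this split does not describe HIF-1 targets as a group. Hk2, which low oxygen is known to induce, was higher at 1.10 (1.03 to 1.18). The upstream sequences of Ldha, Pgk1, Pfkfb3 and Pdk1 are shown, with that of Ldhb, which had the largest fold. All 5 were thus picked with their folds known. Each is the 250 bases before the most upstream start in the RefSeq promoter table, build GRCm38.p6, read 5′ to 3′ on the gene's strand. Ldha lies at chr7:46845554-46845803 (plus strand), Pgk1 at chrX:106186850-106187099 (plus strand), Ldhb at chr6:142507958-142508207 (minus strand), Pfkfb3 at chr2:11553930-11554179 (minus strand) and Pdk1 at chr2:71872974-71873223 (plus strand). Capitals mark ACGTG and GCGTG, the forms of the core of the HIF binding motif, on either strand. ACGTG read on both strands merges into the palindrome CACGTG where its copies overlap.
Ldha: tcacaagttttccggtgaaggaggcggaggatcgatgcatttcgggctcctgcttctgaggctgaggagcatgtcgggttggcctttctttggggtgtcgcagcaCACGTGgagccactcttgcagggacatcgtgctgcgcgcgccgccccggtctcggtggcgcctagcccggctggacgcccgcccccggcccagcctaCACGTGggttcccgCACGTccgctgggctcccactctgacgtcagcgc
Pgk1: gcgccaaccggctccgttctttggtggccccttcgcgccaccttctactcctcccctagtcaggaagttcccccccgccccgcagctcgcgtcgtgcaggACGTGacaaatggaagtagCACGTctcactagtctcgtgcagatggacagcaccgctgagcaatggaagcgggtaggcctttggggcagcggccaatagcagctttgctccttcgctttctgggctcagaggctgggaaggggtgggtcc
Ldhb: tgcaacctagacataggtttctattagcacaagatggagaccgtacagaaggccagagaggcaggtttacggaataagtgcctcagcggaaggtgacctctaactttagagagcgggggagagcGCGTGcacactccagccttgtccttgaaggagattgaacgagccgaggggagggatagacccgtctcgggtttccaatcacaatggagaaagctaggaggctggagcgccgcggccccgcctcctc
Pfkfb3: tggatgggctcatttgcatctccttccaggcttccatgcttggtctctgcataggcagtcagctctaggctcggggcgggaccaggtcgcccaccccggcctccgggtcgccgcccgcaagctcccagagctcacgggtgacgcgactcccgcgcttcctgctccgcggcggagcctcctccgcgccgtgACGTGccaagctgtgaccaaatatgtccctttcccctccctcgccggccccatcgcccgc
Pdk1: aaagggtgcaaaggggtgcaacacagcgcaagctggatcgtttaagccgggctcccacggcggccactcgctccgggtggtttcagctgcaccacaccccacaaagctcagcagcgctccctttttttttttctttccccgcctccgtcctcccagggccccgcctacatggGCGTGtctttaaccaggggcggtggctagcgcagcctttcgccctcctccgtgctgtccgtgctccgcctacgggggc

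The Ldha window held 3 capital stretches, all of the ACGTG form and 2 of them the palindrome, and the Pgk1 window held 2, both of the ACGTG form. The Pfkfb3 window held 1, of the ACGTG form, and the Ldhb and Pdk1 windows each held 1, of the GCGTG form. The table has another window for 3 of these genes: that of Ldha held only a GCGTG, that of Pfkfb3 held a GCGTG and the palindrome, and that of Pdk1 held neither form. Among the genes shown, the ACGTG form stood before Ldha and Pgk1, which were higher, and Pfkfb3, which was lower. All 32 enzyme genes matched the table, with 47 windows in all, and 35 of these (74.5%) held ACGTG or GCGTG. The share was 52.3% over 14624 windows of the listed genes and 38.6% over all 32851 windows. These are shares of windows, not of genes. Some windows of the same gene overlap, as for Aldoa, Eno1 and Pfkm, so a site can be counted more than once. The ACGTG form was in 13 of the 47 windows (27.7%), those of 10 genes, beside 20.6% of the listed genes' windows. Of these 10 genes, Aldoa, Hk2, Ldha, Pdhb, Pfkm, Pgam1, Pgk1 and Pkm had intervals above 1. The interval of Pdk3 included 1 and that of Pfkfb3 lay below 1. Any link between the form and the folds was not tested. A match of letters is a description and shows no binding. Hif1a, which encodes the regulated subunit of HIF-1, had 8361 and 7927 reads, a fold of 0.971 (0.942 to 1.002).

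In the pentose phosphate pathway 4 of the 7 genes, Pgls, Pgd, Tkt and Taldo1, had intervals above 1, and the intervals of G6pdx, Rpe and Rpia included 1. The 3 oxidative genes summed to 259 and 273 CPM, a fold of 1.06 (1.03 to 1.08). G6pdx, the first and rate-limiting enzyme, had 3872 and 3921 reads, a fold of 1.04 (0.992 to 1.09). Pgls, the lactonase of the next step, had 2798 and 3030 reads, a fold of 1.11 (1.05 to 1.17). Pgd, which releases carbon dioxide and makes the second NADPH, had 5719 and 5826 reads, a fold of 1.04 (1.01 to 1.08). With the length trend removed the intervals of all 3 included 1, with Pgls at 1.04 (0.986 to 1.09), Pgd at 1.002 (0.966 to 1.04) and G6pdx at 1.01 (0.969 to 1.06). Under total counts that of Pgd, 0.998 to 1.07, also included 1. The exons of G6pdx overlap those of the listed gene Ikbkg on the other strand, which stood at 0.974 (0.924 to 1.03).

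In the non-oxidative branch, Tkt, transketolase, had 6842 and 7315 reads, a fold of 1.10 (1.06 to 1.13), and Taldo1, transaldolase, had 6992 and 7185 reads, a fold of 1.05 (1.02 to 1.09). These enzymes pass sugar phosphates back to glycolysis. Genes of like length as Taldo1, 1362 bases, had a median log2 fold of 0.09, above its own 0.07, so with that trend removed its fold was 0.990. Rpe, the epimerase, had 3022 and 2970 reads, a fold of 1.01 (0.957 to 1.06). Rpia, the isomerase that makes ribose phosphate, had 2317 and 2153 reads, a fold of 0.952 (0.897 to 1.01), or 0.914 (0.861 to 0.969) with the length trend removed. The ratio of Rpia to Tkt reads was 0.339 in the control and 0.294 in the knockdown library, a ratio of ratios of 0.869 (0.812 to 0.930).

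Other genes of the same pathways were called about as often as genes in general. Of 73 genes on 5 further lists, 62 were measured. Their median log2 fold was 0.00, and 14 intervals (22.6%) lay above 1, beside 24.2% of all genes, and 11 (17.7%) below, beside 22.7%. None was past 2-fold, 3 (4.84%) were past 1.2-fold higher, beside 4.65%, and 4 (6.45%) lower, beside 6.74%. Glucose and lactate transporters lay at a median log2 fold of -0.05 over 10 genes. Slc2a1 and Slc2a3, the main glucose transporters of lymphocytes, stood at 0.961 (0.902 to 1.02) and 0.970 (0.886 to 1.06), chosen after their values were seen. Bsg, the chaperone of lactate transporters, had 22680 and 24918 reads, a fold of 1.13 (1.11 to 1.15), whereas Slc16a3, the lactate exporter, had 732 and 603 reads, a fold of 0.844 (0.757 to 0.941), the latter also chosen after its value was seen.

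The farthest abundant gene of these lists was Txnip, a brake on glucose uptake that glucose itself induces. Txnip had 26178 control and 19009 knockdown reads, a fold of 0.744 (0.730 to 0.758). The other genes past 1.2-fold lower were Rbks, ribokinase, with 220 and 145 reads at 0.675 (0.544 to 0.837), Ldhd, the lactate dehydrogenase for the D form, with 186 and 145 reads at 0.799 (0.638 to 0.998), and Epas1, which encodes HIF-2 alpha, with 204 and 161 reads at 0.809 (0.654 to 0.999). The intervals of Ldhd and Epas1 came close to 1.

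Higher by more than 1.2-fold were Pfkfb1, a liver-type relative of Pfkfb3, with 120 and 193 reads at 1.65 (1.31 to 2.09), Me1, the cytosolic malic enzyme that makes NADPH, with 2473 and 3007 reads at 1.25 (1.18 to 1.31), and Slc2a6, a glucose transporter family member, with 233 and 275 reads at 1.21 (1.01 to 1.45). Pfkfb1 and Pfkfb3 thus lay on opposite sides of equality, Pfkfb1 at far fewer reads. The other most abundant genes were Cs, citrate synthase, at 1.05 (1.03 to 1.08), Acly, ATP citrate lyase, at 1.02 (0.994 to 1.05), and Pck2, the mitochondrial carboxykinase, at 1.09 (1.06 to 1.12). The transcriptional regulators of these pathways had a median log2 fold of -0.08 over 11 genes, with the intervals of Epas1, Arnt, Nfe2l2 and Mlxip below 1 and 0 above.

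Genes of 3 other energy pathways were set beside the enzymes. The 34 respiratory chain subunits had a median log2 fold of 0.14, with 28 intervals above 1 and 0 below, at a median length of 1187 bases. The 17 genes of the tricarboxylic acid cycle had a median of 0.12, with 14 intervals above 1 and 1, that of Ogdh, below, at a median of 2580 bases. The 18 genes of fatty acid beta-oxidation had a median of 0.02, with the intervals of Decr1, Acaa2 and Acadvl above 1 and that of Cpt1a, the carnitine palmitoyltransferase that admits fatty acids to mitochondria, below at 0.785 (0.754 to 0.817). With the length trend removed the medians were 0.06, 0.06 and -0.04, against 0.03 for the 32 enzyme genes. The difference between these lists was not tested.

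**Figure D5:**
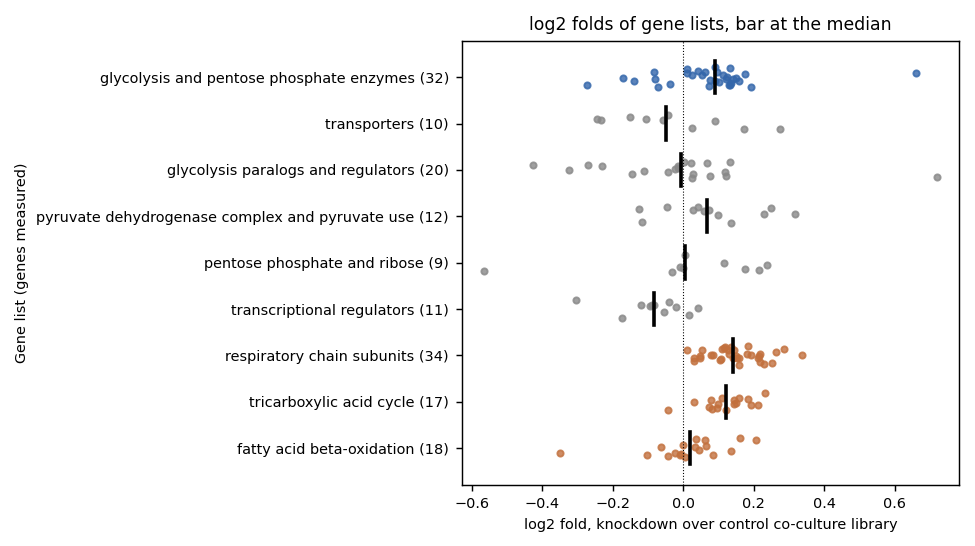
log2 fold of each gene (horizontal axis), knockdown over control library, in the enzyme group (blue), the 5 lists of other pathway genes (grey) and 3 further energy pathways (orange), with a bar at each median and the number of genes measured in brackets. The enzyme group has its median at 0.09, with Ldhb alone at 0.66, and the respiratory chain subunits all lie above 0.

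The summed macrophage and monocyte, neutrophil, B cell and erythroid markers moved between the libraries by more than the enzymes' summed fold of 1.07. The summed T cell, endothelial and matrix-producing cell markers moved by less. The 7 Treg markers had a summed fold of 0.932 (0.880 to 0.987), and each of their own intervals included 1. Of 12 macrophage and monocyte markers 11 were measured, with summed levels of 1299 CPM in the control library and 926 CPM in the knockdown library, a fold of 0.713 (0.704 to 0.722), and all 11 intervals lay below 1. All 8 neutrophil markers were measured, with summed levels of 307 and 396 CPM, a fold of 1.29 (1.26 to 1.32), and 5 intervals lay above 1 and 3 below. The B cell markers had a fold of 0.890 (0.883 to 0.897), with 7 of 8 intervals below 1. The 9 measured of 11 T cell markers summed to 285 and 278 CPM, a fold of 0.976 (0.953 to 1.0003), with 2 intervals above 1 and 4 below. Single T cell markers moved by more, with Zap70 at 1.27 (1.14 to 1.42), Cd28 at 0.826 (0.728 to 0.937) and Cd4 at 0.759 (0.650 to 0.886). Cd4, a marker by which the cells were purified, stood at 8.22 and 6.25 CPM, against 63.9 and 56.5 CPM for Cd8a. Of 13 endothelial markers 5 were measured, Pecam1, Kdr, Vwf, Flt1 and Eng, with summed levels of 115 and 112 CPM, a fold of 0.974 (0.938 to 1.01), 1 interval above 1 and 1 below. Pecam1, which leukocytes also express, made up most of that sum, at 83.9 and 79.7 CPM, and Cdh5, the defining cadherin of endothelium, is not among the listed genes. The 8 measured of 10 markers of matrix-producing cells summed to 2728 and 2614 CPM, a fold of 0.958 (0.951 to 0.966), with 1 interval above 1 and 2 below, and were led by Col5a2 at 1009 and 933 CPM, Fn1 at 640 and 570 CPM and Col1a1 at 553 and 583 CPM. No listed gene has fewer than 100 control reads or 37 knockdown reads, so none of these measured markers could be at 0. Their part in the enzyme values was not tested.

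Some reads may belong to other loci. Gapdh has processed copies in the mouse genome, and 3 rows of the table are named as its pseudogenes. The largest, Gm12070, had 12538 and 13079 reads, a fold of 1.07 (1.04 to 1.10). The sources used here do not say how reads were divided between Gapdh and such copies. The level of Gapdh is therefore uncertain, while the fold of Gm12070 was near its own. The exons of 15 enzyme genes overlap another gene in GENCODE M21, and those of 7 overlap a gene listed under the same symbol. Of the other 25 genes 17 had intervals above 1 and 2, Pfkfb3 and Pdk1, below. These 25 are not free of overlap: the exons of Pgls, Pkm and Tkt overlap a gene on the same strand that is not listed under its M21 symbol. A gene listed under another symbol would be missed.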

How the data were processed

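Total RNA was sequenced from 1 control and 1 knockdown library. The authors deposited 1 table for both, with counts that are unnormalized mapped reads per gene, per the file headers. The deposited scaled counts, of the unit signal, and log2 ratios served only as a check: for all 32 enzyme genes the authors' log2 ratio equals that of the total-scaled columns within rounding. The submitters' processing notes name Trimmomatic 0.39, BWA 0.7.17, mm8 and GRCm39, with no roles. The counting tool and use of strand are not given in the sources used here. BWA does not align across splice junctions, which can lose reads. Column prefixes tied columns to samples, Cont to control and Si to siRNA, and every direction rests on this match.

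The row of totals was left out. The listed genes held 47724379 and 46938963 reads, leaving 0.782% and 0.764% of the totals outside any listed gene. Each gene listed has 100 control reads or more. Scaling used TMM from edgeR 4.0.16 in R 4.3.3 (factors 1.004 and 0.996). A dispersion needs replicates, so edgeR's test was not run. Folds carry exact Clopper-Pearson 95% intervals and families conditional odds ratios (scipy 1.17.1). Log2 folds used a prior count of 0.5. Genes needed 1 CPM in a library and 10 reads in all, which all 32 met. Lengths are the longest protein-coding GENCODE M21 transcripts, found for 90.6% of genes. All members are named. Of other pathway genes, those past 1.2-fold with an interval off 1 and the 5 with the most reads are named by rule. Further ones, among them Hk3, Hif1a, Arnt, Nfe2l2 and Mlxip, are named outside this rule. The calculations were tested on simulated data. Members, lists and thresholds were chosen with earlier results of these data known. Alternatives were size factors from DESeq2 1.42.0, total counts, upper quartiles, other filters, intervals and prior counts, and removal of the length trend. Family shares were also recounted with genes of the same enzyme name outside the 32 genes.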

Additional observations from a re-analysis of the deposited data

How the results depend on the processing

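Under DESeq2 size factors, total counts and upper-quartile scaling the intervals of 21, 19 and 18 enzyme genes lay above 1 and those of 3 below, and the median log2 fold ran from 0.08 to 0.09. All 32 folds stayed within their own intervals under these scalings and with a prior count of 5. With the trend on transcript length removed, 13 intervals lay above 1 and 5 below, the median log2 fold was 0.03, 12 further folds left their own intervals, and 3 folds crossed 1: Taldo1 to 0.990, and Pdk3 and Rpe, whose intervals include 1 either way, to 0.971 and 0.989. Under total counts Pdk3 and Rpe also crossed 1, to 0.998 and 0.9992, and under upper quartiles to 0.997 for both. Here the subtraction of the running median itself lowers the folds of short transcripts. With 99% intervals 18 lay above 1 and 2 below. With a minimum of 20 CPM in either library, 30 enzyme genes remained and 0 were past 1.2-fold higher, because Ldhb is below that level. The mean log2 fold was 0.07. Without Gapdh the enzymes took 0.548% of the listed control reads and 0.582% of the listed knockdown reads, a fold of 1.06 against 1.07 with it. The count past 2-fold was 0 in each direction under every alternative run for it. Leaving out the genes whose exons overlap a listed gene was chosen after seeing the data. So was counting Hk3, Ldhd and Pdk2 with the families, by enzyme name only. That count turned the odds ratio of Hk1's share from 0.958 to 1.07 and that of Ldha's share from 0.714 to 1.03 (0.875 to 1.21). With Ldhd added, the interval for Ldha thus included 1. Counting these genes in took the intervals for Hk1 and Hk2 above 1, and kept the direction and call for Ldhb, Pdk1 and Pdk3. No odds ratio was corrected for transcript length. No paired analysis was possible because each condition has 1 library and the labels give no replicate numbers. Genes below 100 control reads are not analysed here.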
